A study of Equus caballus with 4 samples.

Results

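Amino acid transporter genes were examined in differentiating equine satellite cells (ESC) with and without HMB, a metabolite of leucine. The members are the genes on the array whose symbol places them in the solute carrier families SLC1A, SLC3A, SLC6A, SLC7A, SLC36A, SLC38A and SLC43A, with 1 gene of SLC7A left out by the rule. They number 50 of the 15084 genes that carry a symbol in the files and are measured by 77 probes of 60 bases. The cells came from the *semitendinosus* muscle of 6-month-old colts, according to the methods, and were studied on the 3rd day of differentiation. HMB-treated cells had received HMB for 24 h, at 50 µg in the labels but 50 µM in the methods, while control cells stayed in differentiation medium. On each of 4 two-colour arrays, all on 1 slide with 1 scan time, the Cy5 channel held HMB-treated cells and the Cy3 channel control cells (*n* 4). The dyes were never exchanged, so a dye bias and an effect of HMB cannot be told apart for any single probe. A free-text field of the labels calls the treated cells GO-treated, whereas the titles and source names say HMB, which was used here. The labels call the arrays biological replicates, and by the methods the cells of each culture flask were divided between a treated and a control plate, but neither source says if the samples sharing an array came from 1 flask.

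Cells take up amino acids through carriers that differ in their substrates and in the ions or amino acids they exchange. Leucine enters muscle cells largely through heterodimers of a heavy chain, *SLC3A2*, and a light chain such as *SLC7A5*, which trade it for glutamine that sodium-coupled carriers of the SLC38A and SLC1A families have brought in. Other relatives carry glutamate, glycine, taurine, betaine or creatine, and several are induced by the transcription factor ATF4 when amino acids are scarce.

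A gene was tested when a probe of it was well above background in the same channel on all arrays, which held for 27 of the 50 members. The remaining 23 members were set aside as dim. Of these, 14 were above background on no array in either channel, among them the light chains *SLC7A8*, *SLC7A9* and *SLC7A10*, the taurine carrier *SLC6A6*, the system A carrier *SLC38A4*, and *SLC36A2*, *SLC38A11*, *SLC6A7*, *SLC6A14*, *SLC6A15*, *SLC6A18*, *SLC6A20* and *SLC7A14*. The other 9 reached it on some arrays only and were *SLC1A1*, *SLC36A1*, *SLC36A3*, *SLC38A8*, *SLC6A2*, *SLC6A11*, *SLC6A13*, *SLC6A19* and *SLC7A2*. No ratio is given for a dim gene. Among the tested members, 22 had both channels above background on every array. The other 5 passed through 1 channel, which was the HMB channel for *SLC1A2*, *SLC38A3*, *SLC6A5* and *SLC6A12* and the control channel for *SLC43A2*, so that the filter itself favoured a difference in these genes.

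**Figure D1:**
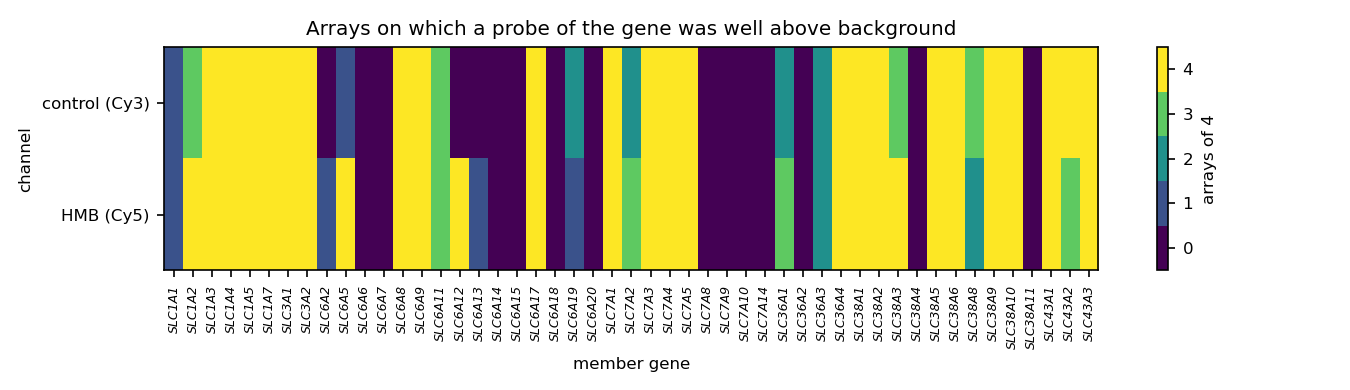
Number of the 4 arrays (colour) on which at least 1 probe of each of 49 member genes (x axis) was well above background in the control channel and in the HMB channel (y axis). Of the genes shown, 13 are at 0 in both channels.

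With *P* values from limma adjusted by the method of Benjamini and Hochberg across all probes tested, 7 of the 27 tested members had an adjusted *P* of at most 0.05, which is 25.9%. Over all 27384 tested probes the share was 22.8%, and over the 9967 genes with a symbol, each represented by its brightest tested probe, it was 22.7%. *SLC6A5*, *SLC38A3*, *SLC6A12*, *SLC7A4* and *SLC7A5* were higher in HMB-treated cells, where 11.5% of all genes were called higher, and *SLC1A3* and *SLC6A8* were lower, where 11.2% were. *SLC6A5*, *SLC38A3* and *SLC6A12* were tested through the HMB channel, and none of the 3 passed with normexp background correction and loess. Among the 22 members above background in both channels 4 were called, beside 20.9% of genes filtered in the same way. The share of members called was thus near that of other genes. The median log2 ratio of the tested members was −0.01 and that of all tested genes 0.03. On arrays 1 to 4 the median of the members was 0.19, 0.07, 0.03 and −0.10. That of all tested genes was 0.04, 0.02, 0.02 and −0.002. The median of the members was 0.099 without array 4 and −0.059 without array 1. The ratio had the same sign on all arrays in 12 tested members (44.4%) and in 46.3% of all tested genes. The *P* values measure only the spread between these samples, and a change in the RNA of each cell and a change in the kinds of cell present cannot be told apart.

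**Figure D2:**
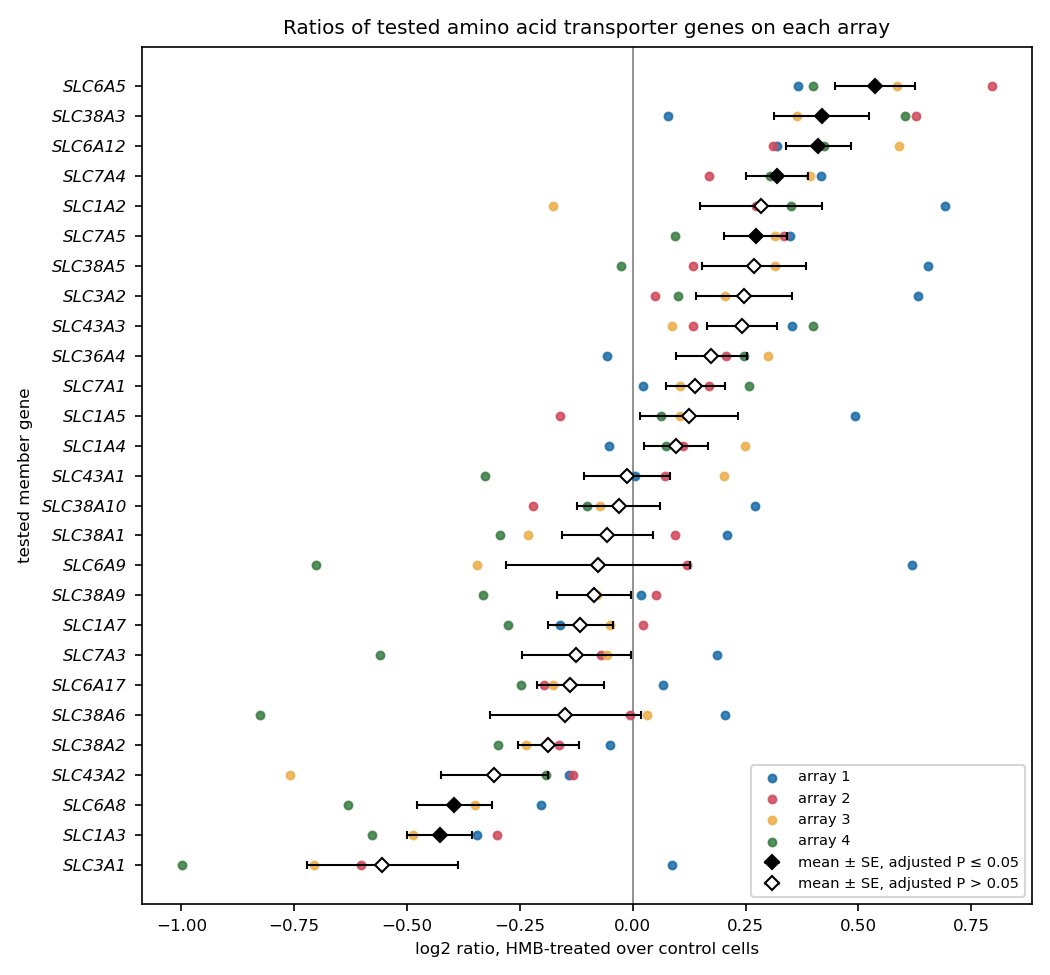
Log2 ratio of HMB-treated over control cells (x axis) on each array (coloured points) for the 27 tested members (y axis), with the mean and SE from limma; filled diamonds mark an adjusted *P* of at most 0.05. Array 1 lies apart from the other arrays for *SLC3A1*, and the points of *SLC6A12* were measured against a control channel not well above background on any array.

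The glutamate carrier *SLC1A3* (GLAST) was lower in HMB-treated cells. It is measured by a pair of probes on the minus strand of chromosome 21 (EquCab1), chr21:24450110-24450169 and chr21:24450068-24450127, which share 18 bases, given in capitals, and are therefore not independent.
SLC1A3, transcript position 1647: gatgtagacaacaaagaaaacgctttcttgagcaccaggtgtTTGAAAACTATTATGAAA
SLC1A3, transcript position 1689: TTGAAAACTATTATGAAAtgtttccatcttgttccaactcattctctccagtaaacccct
At the first probe the processed intensity in control cells was 128.5, 118.4, 123.8 and 109.6 on arrays 1 to 4, and in HMB-treated cells 101.1, 96.1, 88.4 and 73.4. The channels did not overlap at this probe. The log2 ratios were −0.35, −0.30, −0.49 and −0.58, with a mean of −0.43 (SE 0.07, *n* 4; adjusted *P* 0.0111 in limma). The second probe gave a mean of −0.40 with an adjusted *P* of 0.0116. Without array 3 the first probe had an adjusted *P* of 0.0539. The direction was the same under both other dye normalisations. Of the other glutamate carriers, *SLC1A2* had a mean log2 ratio of 0.28 and *SLC1A7* of −0.12, neither past the threshold, and *SLC1A1* was dim. *SLC1A2*, tested through the HMB channel, was at 0.15 without array 1, at 0.44 without array 3 and at 0.09 with normexp and loess, and turned negative without lowess. *SLC1A7* was at −0.06 without array 4 and at −0.17 without lowess, or −0.32 relative to all tested probes. The neutral exchangers *SLC1A4* and *SLC1A5*, which trade neutral amino acids such as alanine and serine, were at 0.10 and 0.12 and did not pass. *SLC1A5* was at 0.0021 without array 1 and *SLC1A4* at 0.04 without array 3.

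*SLC7A5*, the light chain that carries leucine and other large neutral amino acids, was higher in HMB-treated cells. The bases of its probe are spread over 1107 bases of the genome, at chr3:34394105-34395211 on the minus strand.
SLC7A5: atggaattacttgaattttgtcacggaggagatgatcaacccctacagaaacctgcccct
The intensity was 48.6, 51.4, 46.3 and 52.2 in control cells and 61.9, 64.9, 57.6 and 55.7 in HMB-treated cells. Every HMB value lay above every control value, though array 4 showed little difference. The log2 ratios were 0.35, 0.34, 0.31 and 0.09, with a mean of 0.27 (SE 0.07; adjusted *P* 0.0373 in limma). The call was lost without array 1, 2 or 3 (adjusted *P* 0.0865, 0.162 and 0.143). It was also lost without lowess, where the ratio of 0.16 was close to the median of all tested probes in that setting, 0.15. Its heavy chain *SLC3A2* had ratios of 0.63, 0.05, 0.20 and 0.10, positive on all arrays, with a mean of 0.25 that did not pass (adjusted *P* 0.143). The other tested leucine carriers, *SLC43A1* and *SLC43A2*, had means of −0.01 and −0.31 and did not pass. The value of *SLC43A2* rests on array 3 (−0.76), being −0.16 without it and −0.02 with normexp and loess. Without array 1 *SLC3A2* was at 0.12. *SLC7A6* and *SLC7A7* were not analysed here.

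*SLC3A1* is the heavy chain that pairs with *SLC7A9* in the uptake of cystine and basic amino acids, and *SLC7A9* was dim. A pair of adjoining probes on the minus strand of chromosome 15, chr15:51007869-51007928 and chr15:51007809-51007868, measure it.
SLC3A1, transcript position 2004: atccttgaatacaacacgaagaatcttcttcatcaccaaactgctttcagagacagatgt
SLC3A1, transcript position 2064: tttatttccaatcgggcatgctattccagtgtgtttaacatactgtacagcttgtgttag
The log2 ratios were 0.09, −0.60, −0.71 and −0.998 at the brighter probe, position 2064, and 0.03, −0.996, −0.97 and −1.06 at the other. Array 1 showed no fall at either probe, whereas the other arrays did. The brighter probe, which represents the gene, had a mean of −0.55 (SE 0.17) and missed the threshold with an adjusted *P* of 0.0585, while the other had a mean of −0.75 (SE 0.19) and passed it with 0.0343. The adjusted *P* of the brighter probe was 0.0156 without array 1, and 0.151, 0.176 and 0.147 without array 2, 3 and 4. Its mean was −0.37 with normexp and loess and −0.32 without lowess, or −0.47 relative to all tested probes, and passed in neither.

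Of the cationic group of SLC7A, *SLC7A4* was higher in HMB-treated cells, with intensities of 204.6, 162.3, 189.2 and 154.1 in control cells and 273.02, 182.5, 248.6 and 190.2 in HMB-treated cells. The ranges of the channels overlapped, but each array showed the higher value in HMB. The mean log2 ratio was 0.32 (SE 0.07; adjusted *P* 0.0220 in limma), and it kept its sign and its call under both other dye normalisations. It did not pass without array 1, 2 or 3 (adjusted *P* 0.0569, 0.0563 and 0.0984). The arginine and lysine carriers *SLC7A1* and *SLC7A3* had means of 0.14 and −0.12 and did not pass. Relative to the median of all tested probes, *SLC7A1* was at −0.15 without lowess and *SLC7A3* at −0.09.

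The creatine carrier *SLC6A8* was lower in HMB-treated cells. Its probe lies on sequence not placed on a chromosome.
SLC6A8: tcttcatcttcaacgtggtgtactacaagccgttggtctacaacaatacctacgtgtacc
The intensity was 207.9, 206.6, 166.3 and 206.3 in control cells and 180.6, 156.9, 130.6 and 133.3 in HMB-treated cells. The HMB value of array 1 was above the control value of array 3, so the channels overlapped. The log2 ratios of −0.20, −0.40, −0.35 and −0.63 had a mean of −0.39 (SE 0.08; adjusted *P* 0.0212 in limma). The call was lost without array 2 (−0.39, adjusted *P* 0.0830), without array 3 (−0.41, 0.0724) and without lowess (−0.21, 0.0869). Relative to all tested probes the ratio was −0.42 with the normalisation of the authors and −0.36 without lowess.

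*SLC6A5*, a glycine carrier known from inhibitory neurones, passed in 1 of the 3 dye normalisations, that of the authors, and its 4 probes are shown because only the first of them was tested. Each shares 40 bases with the next, and capitals mark bases held by more than 1 probe; the first lies at chr7:76207249-76207308 on the plus strand.
SLC6A5, transcript position 2714: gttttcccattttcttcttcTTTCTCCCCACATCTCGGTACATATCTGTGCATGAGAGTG
SLC6A5, transcript position 2734: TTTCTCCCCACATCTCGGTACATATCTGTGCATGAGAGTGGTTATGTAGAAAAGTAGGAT
SLC6A5, transcript position 2754: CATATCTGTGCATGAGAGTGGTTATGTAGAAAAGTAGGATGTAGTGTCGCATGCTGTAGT
SLC6A5, transcript position 2774: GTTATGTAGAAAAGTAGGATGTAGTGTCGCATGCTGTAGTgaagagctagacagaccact
The first probe was above background on 4 arrays in the HMB channel and on 1 in the control channel, the second on 1 array in the HMB channel only, and the last 2 on none. The measured log2 ratios of the first probe were 0.37, 0.79, 0.59 and 0.40, with a mean of 0.54 (SE 0.09, adjusted *P* 0.0105 in limma). Outside 1 array its control channel was not well above background, so the size of these ratios is uncertain. The gene was tested through the HMB channel, so the filter favoured a difference. With normexp and loess the mean was 0.17 (adjusted *P* 0.0579), and without lowess it was 0.05, below the median of all tested probes.

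The betaine and GABA carrier *SLC6A12* was not well above background on any array in control cells. With the normalisation of the authors its mean signal was estimated to be at least 1.297-fold higher in HMB-treated cells (adjusted *P* 0.0127 in limma). This bound takes the lowest signal well above background, or the probe's own if higher, for the control channel. It is open to dye bias and makes no allowance for the spread between arrays. The 95% confidence interval of the measured log2 ratio in limma ran from 0.24 to 0.58. The *P* value is that of the measured ratio, in a gene tested through the HMB channel alone. With normexp and loess the measured log2 ratio was 0.05 (adjusted *P* 0.500), which is under that bound. The glutamine carrier *SLC38A3* was above background in control cells on 3 arrays, and its ratios of 0.08, 0.63, 0.36 and 0.60 had a mean of 0.42 (SE 0.10; adjusted *P* 0.0347). Array 1 showed the smallest difference. Neither gene passed under another dye normalisation, and both turned negative without lowess. *SLC38A3* was then at −0.06, or −0.21 relative to all tested probes, and at 0.02 with normexp and loess. *SLC6A12* did not pass without array 3 (adjusted *P* 0.0557), nor *SLC38A3* without array 2, 3 or 4 (0.131, 0.0973 and 0.0898).

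**Figure D3:**
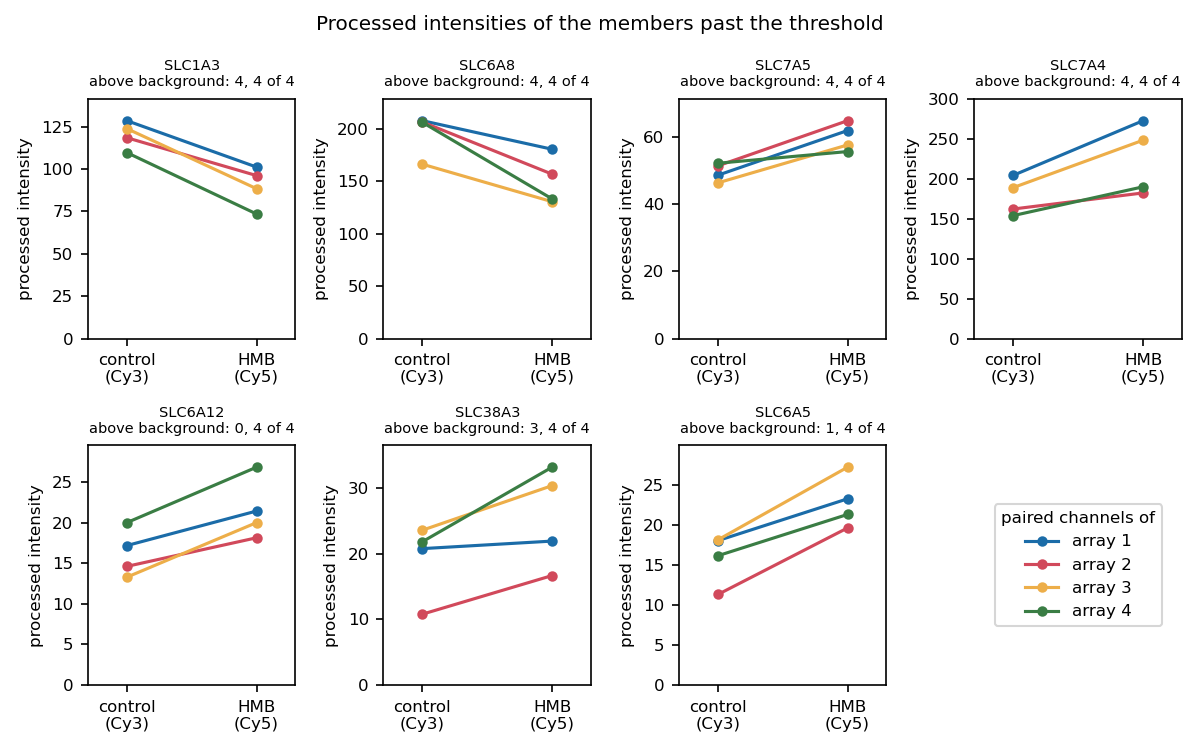
Processed intensity (y axis, linear, from 0) in control and HMB-treated cells (x axis) for the 7 members with an adjusted *P* of at most 0.05; each line joins the channels of 1 array, and the titles give the arrays above background in control and HMB. The lines of *SLC1A3* and *SLC6A8* fall on all 4 arrays and those of the other 5 rise.

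**Figure D4:**
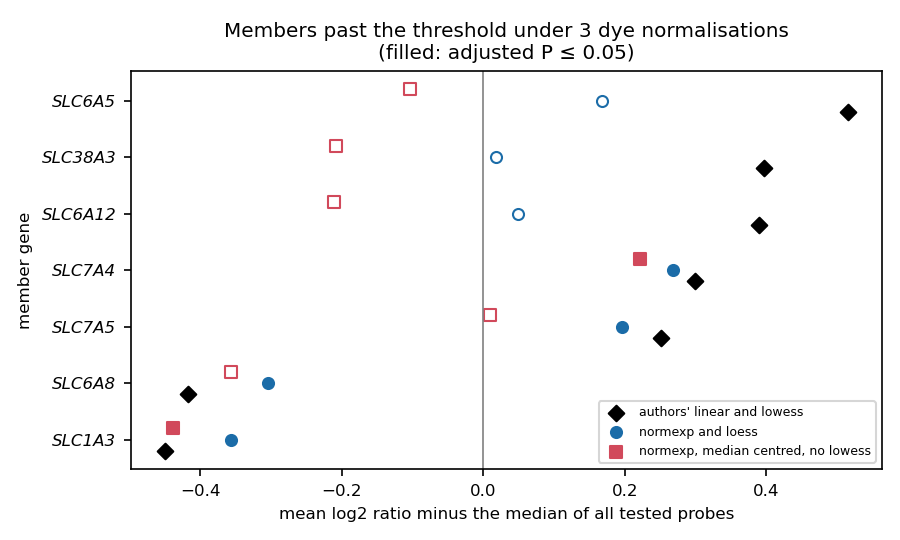
Mean log2 ratio minus the median of all tested probes (x axis) for the same 7 members (y axis) under 3 dye normalisations; filled symbols have an adjusted *P* of at most 0.05. *SLC1A3* and *SLC7A4* are filled in each, while *SLC6A5*, *SLC38A3* and *SLC6A12* are filled only with the normalisation of the authors.

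The other tested members did not pass. The system A carriers *SLC38A1* and *SLC38A2* had means of −0.06 and −0.19, *SLC38A2* being negative on all arrays, but *SLC38A1* was at 0.01 with normexp and loess and *SLC38A2* at 0.06 without lowess, which is −0.09 relative to all tested probes. *SLC38A5*, a system N carrier of glutamine, was at 0.27, or 0.14 without array 1, and did not pass. Without lowess it reached 0.44 (adjusted *P* 0.0215) and *SLC3A2* 0.40 (adjusted *P* 0.0262), but relative to the median of all tested probes, itself 0.15 in that setting, they moved only from 0.25 to 0.29 and from 0.22 to 0.25. *SLC38A6*, *SLC38A9* and *SLC38A10* were at −0.15, −0.09 and −0.03, the proton-coupled *SLC36A4* at 0.17, and *SLC6A9* and *SLC6A17* at −0.08 and −0.14. *SLC36A4* was at 0.002 at its other tested probe, *SLC6A17* at −0.02 with normexp and loess, and *SLC38A9* at −0.003 without array 4. *SLC43A3*, a carrier of nucleobases, was at 0.24 at its brighter probe and −0.11 at the other. Of the 8 members with more than 1 tested probe, 6 had the same sign at both. Some neighbouring genes differed in detection: *SLC6A12* was tested, while *SLC6A13*, whose probe lies 26.6 kb away on chromosome 6, was dim, and *SLC38A4*, 312.9 kb from *SLC38A2*, was dim as well.

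Of the 7 members that are textbook targets of ATF4, 1 was called (14.3%, beside 22.7% of all genes), namely *SLC7A5*, and their median log2 ratio was 0.12. Among 16 tested genes of the amino acid response 3 were called (18.8%, beside the same 22.7%), *TRIB3* (0.48) and *CTH* (0.34) higher and *ATF3* lower, and *ATF4* itself was at −0.02. *ATF3* was tested through the control channel, being above background on 1 array in the HMB channel, so that the filter favoured a difference; of the 15 genes of this list above background in both channels 2 were called. Its ratio of −0.52 became −0.16 with normexp and loess and did not pass (adjusted *P* 0.0697). The calls of *TRIB3*, *CTH* and *ATF3* were lost in 4 of 13, 6 of 13 and 8 of 12 alternatives. Of 21 tested genes of lysosomal amino acid sensing 7 were called (33.3%, beside 22.7% of all genes), 4 higher and 3 lower. The GTPase *RRAGD* had ratios of −1.10, −1.02, −0.86 and −1.28, a mean of −1.06 (adjusted *P* 0.00128 in limma), and kept its call in all 13 alternatives, but the mean was −0.53 with normexp and loess and −0.56 without lowess (−0.71 relative to all tested probes). *SESN2*, which binds leucine, had a mean of 0.54, but of 0.15 without lowess (adjusted *P* 0.278), no higher than all tested probes. *SESN1* (−0.38), *DEPDC5* (−0.31), *FNIP2* (0.29) and *NPRL2* (0.22) were the next by size. With normexp and loess these genes were at −0.32, −0.13, 0.18 and 0.17. Without lowess they were at −0.24, −0.14, 0.17 and 0.42, or −0.39, −0.29, 0.02 and 0.27 relative to all tested probes. The calls other than that of *RRAGD* were each lost in 7 to 10 of 13 alternatives. Among 6 tested partners and regulators of carriers at the membrane 4 were called (66.7%, beside 22.7% of all genes). The ubiquitin ligases *NEDD4L* (−1.04) and *NEDD4* (−0.31) and *ARL6IP5* (−0.29) were lower, and the kinase *SGK1* (0.52) was higher. Without lowess neither *NEDD4* (−0.13, or −0.28 relative to all tested probes; adjusted *P* 0.225) nor *ARL6IP5* (0.10, or −0.05 relative) passed, and *NEDD4L* was at −0.62, or −0.77 relative, and at −0.63 with normexp and loess. *NEDD4* did not pass whichever array was left out (adjusted *P* 0.0547, 0.0601, 0.100 and 0.0518 without arrays 1 to 4), nor *ARL6IP5* without array 2 or 3 (0.0801 and 0.105), and the methods' t-test gave the 4 genes an adjusted *P* from 0.0643 to 0.107. Of 8 other amino acid and peptide carriers 1 was called (12.5%, beside 22.7% of all genes), namely *SLC15A3*. This gene was above background on 2 arrays in the HMB channel and was likewise tested through the control channel, where the filter favours a fall. Its ratios were −0.43, −0.80, −1.91 and −0.87. The mean of −1.002 became −0.42 with normexp and loess and did not pass (adjusted *P* 0.0651). The call was lost in 6 of 12 alternatives, among them limma without array 2 or 4 (adjusted *P* 0.0596 and 0.0607). Of 4 tested genes listed with the monocarboxylate carriers, *SLC16A1*, *SLC16A7*, *SLC16A8* and *EMB*, 0 were called in limma, beside 22.7% of all genes. In the methods' t-test 0 were called as well, beside 768 of all 27384 probes. At an unadjusted *P* under 0.05 there were 0 in both tests, beside 10546 probes in limma and 8435 in the t-test. *EMB* was tested through the HMB channel, being above background on 2 arrays in the control channel.

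All 7 tested myogenic markers, from *MYH3* (−1.11) to *MYOG* (−0.42), were lower in HMB-treated cells, with medians of −0.43, −0.88, −1.06 and −1.26 on arrays 1 to 4. Array 1 showed the smallest fall. The direction held under both other dye normalisations, but without lowess *MYH3* (−0.21), *ACTA1* (−0.22) and *MYOG* (−0.20) did not pass (adjusted *P* 0.103, 0.115 and 0.0860). Relative to all tested probes they were then at −0.36, −0.37 and −0.35. The calls of *CKM*, *MYOD1* and *MYOG* were lost without array 2, 3 or 4, with adjusted *P* from 0.0503 to 0.101, and the methods' t-test gave the 7 markers an adjusted *P* from 0.0507 to 0.174. Of 4 tested fibroblast markers *PDGFRA* was higher, with ratios of 1.09, 1.38, 1.46 and 2.19 (adjusted *P* 0.00358 in limma, 0.0775 in the methods' t-test). Its mean of 1.53 became 0.89 with normexp and loess and 0.93 without lowess, or 0.78 relative to all tested probes. *COL1A2*, *DCN* and *LUM* were at −0.20, 0.15 and 0.01 and did not pass. Of 2 tested leukocyte markers 0 passed in limma, beside 22.7% of all genes, and 0 in the methods' t-test. In limma 1 of them had an unadjusted *P* under 0.05, beside 10546 of all 27384 probes. No endothelial, adipocyte or glial marker was tested. In both channels 3 of 4 endothelial, 2 of 2 adipocyte and 4 of 4 glial markers were above background on no array. The part of these markers in the ratios of the carriers was not tested.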

How the data were processed

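The authors scanned the arrays and deposited Feature Extraction output, version 10.10.1.1 per the file headers. The deposited log10 ratios (Cy5 over Cy3) and processed intensity values were background-subtracted and dye-normalised by the authors with linear and lowess steps; the deposited raw intensity values are mean signals and local backgrounds. Ratios were multiplied by 3.32 to log2. Spots marked non-uniform or outlying by the authors' software were left out and the spots of a probe averaged. Median signal over background was 3.16 to 3.82 in Cy3 and 4.68 to 5.85 in Cy5, and 4 arrays limit the precision. Mean ratios were tested against 0 with limma 3.58.1 in R 4.3.3, two-sided, with Benjamini and Hochberg adjustment over 27384 probes (threshold 0.05); at least 3 values were required. Python 3.11.15, numpy 2.4.6, pandas 2.3.3, matplotlib 3.10.9 and the R package data.table (version 1.17.8) were also used. The fit was tested on simulated data with no dye bias, in which 200 probes were raised by a log2 ratio of 1. Of these limma recovered 176 and the t-test 46. That rise is larger than the mean ratio of any called member (0.54 at most), so recovery at the sizes reported here was not tested. Of several tested probes, the one with the highest mean intensity stands for the gene, and all other members are named; of other lists, up to 6 called genes are named by size, and the choice of uncalled genes named beside them followed a look at the values. The values of 1 member are not reported here. The members and lists were chosen with earlier results of these data known. Alternatives were normexp (offset 50) with loess or with median centring and no lowess, the methods' t-test (each probe's ratios on their own; the study's data processing notes name a Student test), an intensity trend with a robust prior, unpaired channels, other filters, marked spots kept, a minimum of 1.3-fold, other ways of joining probes and each array left out. Probe positions are those of the files on EquCab1, with descending positions read as the minus strand.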

Additional observations from a re-analysis of the deposited data

Results flagged for a closer look

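In 2 of the 27 tested members 1 array lay far from the others for its log2 ratio, where chance gives about 1 in 20 such groups. *SLC43A2* was at −0.76 on array 3, and *SLC7A5* was at 0.093 on array 4.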

How the results depend on the processing

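Of the 27 tested members, 7 were called, 5 higher and 2 lower, and none of the 7 calls held in every alternative. With normexp and loess 4 were called, 2 of them higher, beside 6239 of all 27384 probes. Without lowess 4 were called, 3 higher and 1 lower, beside 7288 of all 27384 probes. The methods' t-test called 0 members, 0 higher and 0 lower, beside 768 of all 27384 probes. In that test 8 members were at an unadjusted *P* under 0.05, as were 8435 of all probes. With unpaired channels (no replicate block) limma called 0, 0 higher and 0 lower, beside 2226 of all 27384 probes. There 6 members were at an unadjusted *P* under 0.05, beside 6494 of all probes. Without a filter on dim probes 2 of 50 were called, 1 higher and 1 lower, and with both channels above background 4 of 22, 2 higher. Over all probes these settings called 3690 of 43603 and 5771 of 26097. An intensity trend with a robust prior called 6, 3 higher and 3 lower, beside 6760 of all 27384 probes. The added minimum of 1.3-fold called 5, 3 higher. With that minimum the higher genes were *SLC6A5*, *SLC38A3* and *SLC6A12*, all tested through the HMB channel. *SLC6A12* was counted there by its measured ratio, while its bound of 1.297-fold is under the minimum. The mean of a gene's tested probes, and the rule that any tested probe may pass, each called 8, 5 higher and 3 lower. With the mean, 4263 of all 19002 genes and probes without a symbol were called. *SLC3A1* passed with the trend (adjusted *P* 0.0458) and with the mean (0.0411). With 1 array left out the number called was between 1 and 6, from 1 to 4 higher and from 0 to 3 lower. The count without array 3 was 1 of 29, beside 2705 of all 27493 probes. Without array 2 it was 3 of 28, beside 2573 of 27522. Without arrays 1 and 4 it was 6 of 28 and 6 of 27, beside 4876 of 27589 and 4957 of 28009. The median ratio of the members moved by less than its spread over the arrays in all alternatives run for it. Without lowess it was −0.003, while the median of all tested probes rose from 0.02 to 0.15. Relative to all tested probes the members' median was thus lower in that setting. The cause of the changes between settings was not tested.

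Signs changed with normexp and loess for *SLC38A1* (0.0055) and *SLC6A9* (0.021). Without lowess they changed for *SLC1A2* (−0.0073), *SLC1A4* (−0.0099), *SLC38A10* (0.11), *SLC38A2* (0.064), *SLC38A3* (−0.058), *SLC38A9* (0.021), *SLC43A1* (0.16), *SLC6A12* (−0.061), *SLC7A1* (−0.0031) and *SLC7A3* (0.057). All tested probes had a median of 0.15 there, and relative to it *SLC38A10* (−0.04), *SLC38A2* (−0.09), *SLC38A9* (−0.13) and *SLC7A3* (−0.09) kept their sign, *SLC43A1* was at 0.0078, and *SLC6A5* (−0.10) and *SLC43A3* (−0.14) changed theirs. With the mean of all tested probes *SLC43A1* was at 0.081. With 1 array left out *SLC38A1* ran from −0.14 to 0.023, *SLC38A10* from −0.13 to 0.033, *SLC38A6* from −0.27 to 0.076, *SLC43A1* from −0.084 to 0.093, *SLC6A9* from −0.31 to 0.13 and *SLC7A3* from −0.23 to 0.020. Of the pathway genes and markers, recomputed as a choice made after seeing the data, *ARL6IP5* was at 0.10 without lowess, or −0.05 relative to all tested probes.

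Over all probes, 6257 were called, 49.1% of them higher. Without lowess the median ratio rose from 0.02 to 0.15 and 78.3% of 7288 called probes were higher. That setting was centred on all spots other than controls, so the median of the tested probes is not 0 there. An earlier account of these data gives another share of higher calls for a setting described alike. The share of higher calls was 29.9% of 2226 with unpaired channels and 36.4% of 2573 without array 2. The count was 768 in the methods' t-test, 3690 without the filter and 2705 without array 3. Signal over background was lowest in Cy3, at 3.16 on array 2, which limits what can be said of dim carriers.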
